A study of Mus musculus with 15 samples.

Results

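C/EBPε was compared with C/EBPβ on 6 of the 15 arrays of a study in NIH 3T3 cells, a mouse embryo fibroblast line. The 6 arrays are the 3 whose titles name epsilon and the 3 whose titles name beta, and every probe set other than the manufacturer's controls was read on them. The cells of the CEBPE group carried a human C/EBPε cDNA and those of the CEBPB group a human C/EBPβ cDNA, each in the zinc-inducible plasmid pMTCB6+. The vector group carried the plasmid with no insert, and the remaining arrays came from cells with C/EBPα (CEBPA) or C/EBPδ (CEBPD), 3 arrays to a group. All 5 groups were G418-resistant polyclonal transfectants and all had zinc sulphate in the medium for 16 h before RNA extraction, so no group was without zinc or without selection. The labels describe the triplicates as clones but do not say whether they were separate transfections, so the spread between arrays may be partly technical. The probe sets were designed to mouse transcripts and were not read as a measure of the human transgenes, so the amount of each factor in the cells is not known here, and a difference in amount and a difference between the factors cannot be told apart.

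C/EBPs are basic leucine zipper transcription factors that bind DNA as dimers and share most of their recognition sequence. C/EBPβ is known for its part in the acute phase response, in macrophages and early in fat cell differentiation. C/EBPε is known mainly from granulocyte precursors, where it is needed for the secondary granule proteins, and fibroblasts do not normally depend on it.

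Signals are linear intensities in arbitrary units, scaled here so that every array has the same median, and differences are log2 CEBPE minus CEBPB. The summed signal of 13 fibroblast markers was 136600 to 183300 on the CEBPE arrays and 140600 to 199500 on the CEBPB arrays, so the groups overlapped on the sum. The sum covers opposite shifts. Dcn was higher on every CEBPE array (23180 to 36280 against 8496 to 10030) and Col1a1 lower (17000 to 25870 against 30070 to 46950). Col1a1, Col1a2 and Fn1 were bright in both, while the probe sets for the fibroblast markers Vim and Lum lay under the filter on low signal. Of 14 myeloid markers, Cd14 among them, 6 passed that filter, and the sum over all 14 was 19250 to 22320 on the CEBPE arrays against 16300 to 18580 on the CEBPB arrays. The defining markers Elane, Mpo, Ltf and Itgam lay under it. Cd14 had the widest gap of the 14, averaging 7313 in CEBPE and 4122 in CEBPB. Of the 6 that passed, 3 had a difference above 0, and Cd68 was lower on every CEBPE array (mean 1121 against 1552). Marker sums of mature adipocytes (5838 to 7374 against 4853 to 5484) and skeletal muscle (5640 to 7261 against 4346 to 5217) were also higher on every CEBPE array, with 5 of 6 and 5 of 8 markers under the filter, and those of other cell types overlapped. The array control ratio of Gapdh 3′ to 5′ signal, a sign of RNA quality, was 0.967 to 0.987 on the CEBPE arrays and 0.892 to 0.945 on the CEBPB arrays, while the Actb ratio overlapped. The part of these shifts in the results was not tested. Correlations of log2 signal between arrays were 0.929 to 0.951 within CEBPE, 0.943 to 0.965 within CEBPB and 0.905 to 0.947 between them.

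Most genes had similar signals in both groups, and a small set separated them. Of 6963 probe sets tested, 163 (2.34%) passed an adjusted p of 0.05, of which 73 (1.05%) were higher in CEBPE and 90 (1.29%) higher in CEBPB. Adjusted p values are from limma's moderated fit over all 15 arrays with Benjamini-Hochberg adjustment over the 6963 probe sets, and a gene past that threshold is said to be called. Among the called probe sets, 29 (0.416%) were more than 2-fold higher in CEBPE and 27 (0.388%) more than 2-fold higher in CEBPB. On all 163 the 3 arrays of one group lay wholly above the 3 of the other, and such separation was seen in 1294 probe sets (18.6%) of those tested, 719 (10.3%) toward CEBPE and 575 (8.26%) toward CEBPB. Read by its brightest probe set, 57 of 5338 genes were higher in CEBPE and 70 higher in CEBPB, with a median log2 difference of 0.03 over all genes. The count fell to 85 without CEBPE replicate 3, 93 without CEBPB replicate 3, 102 without CEBPB replicate 2 and 105 without CEBPB replicate 1. It was 75 without the arrays numbered 1 of every group and 72 with only the CEBPE and CEBPB arrays fitted. Of the 148 called probe sets that name a single gene, 45 kept the call in all the alternative fits that tested them, and none changed direction. The gene lists below were chosen with earlier results of these data known, so counts within a list are descriptive and do not test it.

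**Figure D1:**
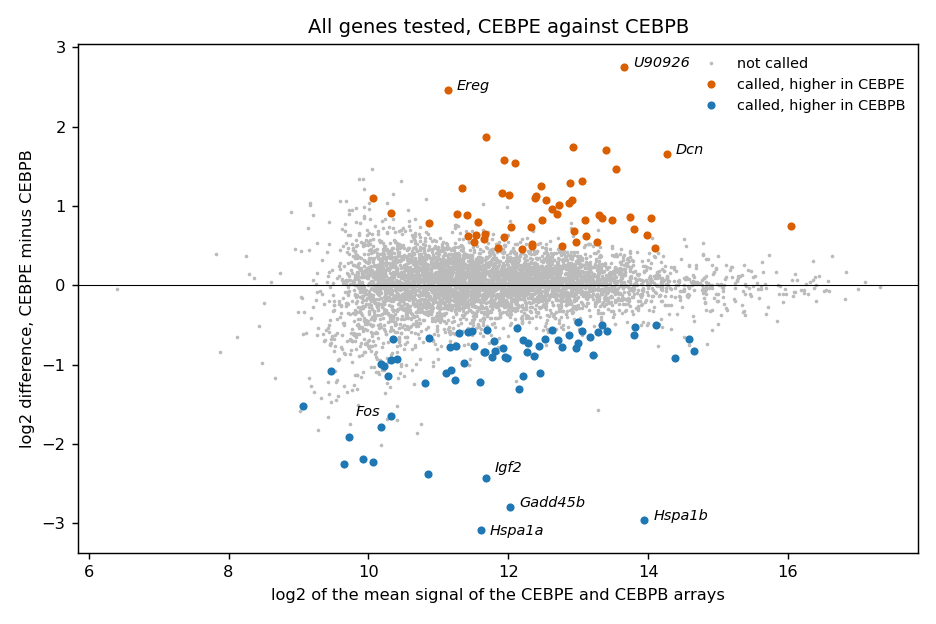
Log2 difference between CEBPE and CEBPB (vertical) against the log2 mean signal of both groups (horizontal) for the 5338 genes tested, each a point, with called genes in orange (higher in CEBPE) and blue (higher in CEBPB). The largest differences are 2.75 for U90926 above the line and -3.08 for Hspa1a below it, and most points lie near 0.

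The heat shock genes gave the largest differences in the direction of CEBPB. Heat shock proteins are chaperones that hold or refold unfolded proteins, and their genes are switched on by heat shock factor when proteins misfold. Of 18 members tested, 6 were called higher in CEBPB and 0 higher in CEBPE, against 1.29% of all probe sets called in that direction, and the median difference was -0.37. Because the list was chosen with earlier results of these data known, these counts do not test the list as a group. Read by the brightest probe set of each gene, all 18 values were below 0. The signal of Hspa1b, an inducible HSP70 gene, was 3095, 3667 and 4039 on the CEBPE arrays and 27270, 27460 and 28930 on the CEBPB arrays, beside 74070, 86390 and 79420 in vector. The 3 groups did not overlap, with vector highest and CEBPE lowest. The difference was -2.96 (SE 0.14, adjusted p = 1.44e-09), or 7.79-fold. Its near-identical copy Hspa1a read 315.6, 712.8 and 1221 in CEBPE and 5056, 5835 and 5608 in CEBPB, a difference of -3.08 (SE 0.32, adjusted p = 1.87e-05), and signal may be shared between the probe sets of the copies, so the separate values are uncertain. Dnajb1, an HSP40 partner of HSP70, read 1880, 3194 and 2924 in CEBPE against 5968, 7379 and 5999 in CEBPB, with 24150, 29040 and 24210 in vector. Again every CEBPE array lay under every CEBPB array and both lay under vector, with a difference of -1.30 (SE 0.20, adjusted p = 0.0012). Cryab, the small heat shock protein αB-crystallin, differed by -1.21 (SE 0.15, adjusted p = 0.000141), and Hsph1, an HSP110 that recharges HSP70, by -0.82 (SE 0.13, adjusted p = 0.00118). Zfand2a, an arsenite- and heat-inducible zinc finger gene, differed by -0.98, and it was no longer called when CEBPB replicate 3 was left out (adjusted p = 0.0513), when the arrays numbered 1 were (0.178) and with only the CEBPE and CEBPB arrays fitted (0.0523). The most abundant chaperones were not called: Hspa8, the constitutive HSC70, averaged 43340 in CEBPE and 47750 in CEBPB (adjusted p = 0.712). Hsp90aa1, a cytosolic HSP90, averaged 31890 and 38870 (adjusted p = 0.488). A dimmer Hsp90aa1 probe set ran the other way without overlap, at 1550, 1332 and 1604 in CEBPE and 964.4, 1202 and 926.8 in CEBPB, and was not called either (0.54, adjusted p = 0.273). Hspd1, the mitochondrial HSP60, averaged 37240 and 47190 (adjusted p = 0.281).

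The growth arrest genes Gadd45b and Gadd45g, stress sensors that act on MAP kinase signalling, separated the factors as widely. Gadd45b read 1113, 924.1 and 1125 in CEBPE, 6579, 8376 and 6931 in CEBPB, and 17030, 16480 and 14290 in vector. The difference between the factors was -2.79 (SE 0.23, adjusted p = 1.91e-06), and a dimmer probe set gave -1.80 (SE 0.30, adjusted p = 0.00271). Gadd45g read 430.4, 499.9 and 878.9 in CEBPE and 2433, 4189 and 2610 in CEBPB, with 14020, 21870 and 12810 in vector. For both genes the order vector, CEBPB, CEBPE held with no overlap, and the Gadd45g difference was -2.38 (SE 0.27, adjusted p = 6.64e-05). Btg2, an antiproliferative gene of the p53 response, differed by -0.79 (adjusted p = 0.00282), and its call was lost with only the CEBPE and CEBPB arrays fitted (0.0557). The list of growth arrest and p53 targets had a median of -0.18. Of its 16 tested members, 3 were called higher in CEBPB and 1 higher in CEBPE, against 1.29% and 1.05% of all probe sets. That gene was Cdkn2c, the cell cycle inhibitor p18, at 0.88 (adjusted p = 0.0353), a call lost in 7 of 18 alternative fits including those without CEBPB replicate 1, CEBPB replicate 3, CEBPE replicate 2 or CEBPE replicate 3 (adjusted p up to 0.154). Cdkn1a, the cell cycle inhibitor p21, averaged 4179 in CEBPE and 5584 in CEBPB (adjusted p = 0.23), and Mdm2, the ubiquitin ligase that restrains p53, averaged 5942 and 7803 (adjusted p = 0.226).

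**Figure D2:**
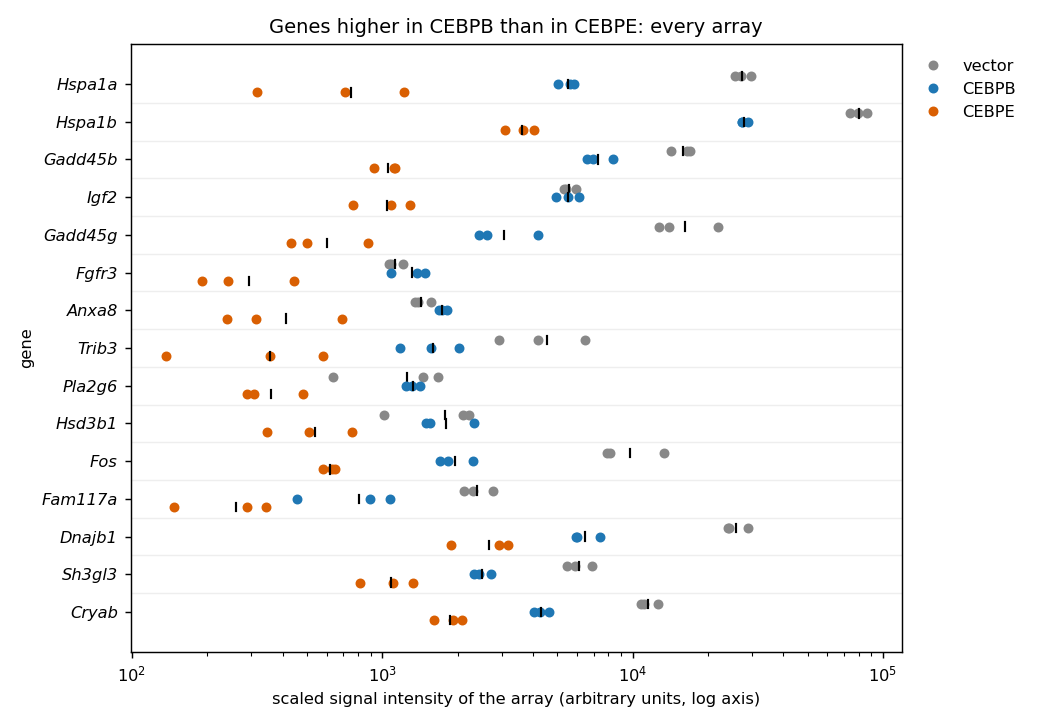
Scaled signal of each array (horizontal, log axis) for the 15 genes with the largest called differences in the direction of CEBPB, with vector, CEBPB and CEBPE points in grey, blue and orange and a black bar at each group's arithmetic mean of 3 arrays. Orange points lie left of the blue points in every gene, and for Hspa1a, Hspa1b, Gadd45b, Gadd45g, Trib3, Fos, Fam117a, Dnajb1, Sh3gl3 and Cryab the grey points lie right of both.

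Immediate early genes, which growth factors and stress switch on within minutes, divided between the factors. Of 30 tested, 7 were called higher in CEBPB and 2 higher in CEBPE, against 1.29% and 1.05% of all probe sets. The median was -0.21. Fos, a subunit of the AP-1 transcription factor, read 629.6, 645.2 and 580.8 in CEBPE and 1706, 1838 and 2308 in CEBPB, beside 8119, 13320 and 7913 in vector. The 3 groups were again apart, and the difference was -1.65 (SE 0.21, adjusted p = 0.00021). Fosl1, which encodes the AP-1 subunit Fra-1, ran the other way: it read 10620, 11930 and 11000 in CEBPE, 6000, 6647 and 6385 in CEBPB and 10350, 12830 and 10130 in vector. The CEBPE and vector arrays overlapped while CEBPB lay under both, and the difference between the factors was 0.82 (SE 0.11, adjusted p = 0.000558). Klf4, a zinc finger regulator of growth arrest and reprogramming, averaged 2765 ± 66.4 in CEBPE and 5187 ± 188 in CEBPB (SD, n = 3), a difference of -0.91 (SE 0.13, adjusted p = 0.000757). Rgs2, a regulator of G protein signalling, differed by -0.92 (adjusted p = 0.00531) and Dusp1, a phosphatase that switches off MAP kinases, by -0.62 (adjusted p = 0.00545). Neither was called once the arrays numbered 1 were dropped (adjusted p = 0.0501 and 0.0992) or with only the CEBPE and CEBPB arrays fitted (0.161 and 0.0666). Ccn1, a matricellular protein gene, differed by -0.83 (adjusted p = 0.0012) and lost its call without the arrays numbered 1 (0.0612). Dusp6, an ERK phosphatase, was higher in CEBPE at 0.73 (adjusted p = 0.0455), and Ccn2, the connective tissue growth factor gene, higher in CEBPB at -0.53 (adjusted p = 0.0458). Each of those calls was lost in 9 of 18 alternative fits, including every single-array omission except that of CEBPE replicate 1 for Dusp6 and CEBPE replicate 2 for Ccn2. Egr1 averaged 8846 in CEBPE and 8411 in CEBPB (adjusted p = 0.892), Jun 2970 and 2717 (adjusted p = 0.843), and Ier3 14250 and 14160 (adjusted p = 0.983).

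Among the listed genes of the unfolded protein and integrated stress response, in which ATF4 raises amino acid synthesis and transport, all calls were in 1 direction. The median of the list was -0.07, and 10 members had a difference above 0, up to 0.705. Of 26 tested, 5 were called higher in CEBPB and 0 higher in CEBPE, against 1.29% and 1.05% of all probe sets. Ddit3, which encodes the C/EBP relative CHOP, was among them: it read 2353, 2481 and 2436 in CEBPE and 4162, 4982 and 4474 in CEBPB, beside 9045, 11740 and 11810 in vector. No group overlapped another, and the difference was -0.90 (SE 0.18, adjusted p = 0.00834). Trib3, a pseudokinase gene under CHOP and ATF4, read 136.3, 578.7 and 355.7 in CEBPE and 1566, 2029 and 1176 in CEBPB. With the first CEBPE array raised to the floor of 190, the difference was -2.19 (SE 0.35, adjusted p = 0.00183), and the call was lost with only the CEBPE and CEBPB arrays fitted (0.0596). Asns, asparagine synthetase, read 17520, 19290 and 20070 in CEBPE and 27180, 30570 and 32990 in CEBPB, a difference of -0.67 (SE 0.12, adjusted p = 0.00409) that the same fit also left uncalled (0.0641). The alanyl-tRNA synthetase gene Aars differed by -0.68 (adjusted p = 0.0125) and the amino acid transporter gene Slc7a5 by -0.65 (adjusted p = 0.0109). Each lost its call in 4 of 18 fits, without CEBPB replicate 2 (0.0672 and 0.0552), without CEBPE replicate 3 for Aars (0.0921) and without CEBPB replicate 3 for Slc7a5 (0.0691). The called members did not include the endoplasmic reticulum chaperone Hspa5, which averaged 33890 in CEBPE and 34610 in CEBPB (adjusted p = 0.954), nor Atf4 itself, which averaged 25890 and 32210 (adjusted p = 0.196). Xbp1, a transcription factor of the unfolded protein response, differed by 0.30 (adjusted p = 0.34). Ero1a, an oxidase of the endoplasmic reticulum that is not on this list, was called higher in CEBPE at 0.85 (adjusted p = 0.00409 in limma).

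The mouse C/EBP genes gave no other call. Of 5 on the array 4 were tested, and besides Ddit3 these were Cebpb, Cebpd and Cebpg. Cebpb read 6100, 11850 and 11750 in CEBPE and 7578, 14680 and 14080 in CEBPB, with replicate 1 the lowest in both, and the difference was -0.29 (SE 0.33, adjusted p = 0.764). Cebpd differed by -0.35 (SE 0.19, adjusted p = 0.423) and Cebpg by -0.35 (SE 0.16, adjusted p = 0.34). Cebpa lay under the filter.

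Growth factor genes held some of the widest differences in both directions. Of 26 growth factors and receptors tested, 2 were called higher in CEBPE and 3 higher in CEBPB, against 1.05% and 1.29% of all probe sets. The median was -0.08. Ereg, which encodes the EGF receptor ligand epiregulin, read 3614, 4088 and 3700 in CEBPE, 563.1, 795.6 and 740.2 in CEBPB and 779.7, 1243 and 640.4 in vector. The CEBPE arrays stood alone while CEBPB and vector overlapped, and the difference between the factors was 2.46 (SE 0.22, adjusted p = 3.81e-06), or 5.48-fold. Fgf7, the keratinocyte growth factor that fibroblasts send to epithelia, read 5559, 6490 and 5503 in CEBPE and 1770, 2293 and 1824 in CEBPB, a difference of 1.58 (SE 0.15, adjusted p = 1.09e-05). Igf2, a fetal growth factor, read 763.8, 1287 and 1088 in CEBPE, 4923, 6113 and 5509 in CEBPB and 5311, 5959 and 5441 in vector. Here CEBPB overlapped vector and of these 3 groups only CEBPE was low, a difference of -2.43 (SE 0.19, adjusted p = 1.1e-06). Fgfr3, an FGF receptor gene outside that list but among the 15 largest differences, had the same order at low signal, with 445.2, 190.5 and 241.5 in CEBPE and 1478, 1378 and 1087 in CEBPB. Its difference was -2.25 (SE 0.33, adjusted p = 0.000907), and the call was lost with only the CEBPE and CEBPB arrays fitted (0.0539). The other list members called higher in CEBPB were Ccn2, described above, and Hbegf. Hbegf, another EGF receptor ligand, was higher in CEBPB at -0.77 (adjusted p = 0.0103), the opposite direction to Ereg, but lost its call in 4 of 18 fits, including those without CEBPB replicate 2 (0.061) or CEBPE replicate 3 (0.0766).

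Neutrophil attractants were among the genes highest in CEBPE. Of 18 chemokines, cytokines and their signalling genes tested, 3 were called higher in CEBPE, against 1.05% of all probe sets called in that direction, and 1 was higher in CEBPB. The median was 0.20. This list too was chosen with earlier results of these data known, so its counts are descriptive. Cxcl1, a neutrophil attractant, read 17940, 16260 and 18420 in CEBPE, 6411, 5935 and 6730 in CEBPB and 5850, 6031 and 5905 in vector. The difference was 1.46 (SE 0.14, adjusted p = 1.11e-05), and a second probe set gave 1.52. Cxcl5, a related neutrophil attractant, read 11960, 12830 and 11690 in CEBPE, 4821, 4881 and 5013 in CEBPB and 2667, 2552 and 2075 in vector. For Cxcl1 CEBPB overlapped vector, whereas for Cxcl5 CEBPB lay between vector and CEBPE, and the Cxcl5 difference between the factors was 1.31 (SE 0.13, adjusted p = 1.29e-05). Osmr, the oncostatin M receptor, differed by 1.02 (SE 0.16, adjusted p = 0.00146). Ccl8, a monocyte attractant, ran the other way at -0.84 (SE 0.13, adjusted p = 0.00169), with 3401, 4142 and 3050 in CEBPE and 5646, 6738 and 6504 in CEBPB. Ccl2, the main monocyte attractant of fibroblasts, differed by 0.11 (adjusted p = 0.835).

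Of 8 acute phase and innate defence genes tested, 2 were called higher in CEBPE and 1 higher in CEBPB, against 1.05% and 1.29% of all probe sets. Ptx3, a soluble pattern recognition protein, read 13390, 18360 and 17980 in CEBPE, 6034, 4342 and 4810 in CEBPB and 3257, 4379 and 4197 in vector. Of these 3 groups only the CEBPE arrays stood apart, and the difference was 1.71 (SE 0.20, adjusted p = 7.14e-05). Cd14, the co-receptor for bacterial lipopolysaccharide, read 6699, 7677 and 7563 in CEBPE and 4366, 3767 and 4234 in CEBPB. Its difference was 0.83 (adjusted p = 0.0232), but the call was lost in 9 of 18 alternative fits, including every single-array omission except that of CEBPE replicate 1 (adjusted p up to 0.101). Cp, the copper-binding plasma protein ceruloplasmin, read 1114, 2007 and 1327 in CEBPE, 2934, 4191 and 2907 in CEBPB and 1339, 1702 and 1551 in vector. Of these 3 groups it was high only in CEBPB, with a difference of -1.20 (SE 0.20, adjusted p = 0.00282). It lost its call with only the CEBPE and CEBPB arrays fitted (0.0553). Hp, the acute phase protein haptoglobin, averaged 2534 ± 279 in CEBPE, 3737 ± 700 in CEBPB and 1383 ± 336 in vector (SD, n = 3), and the difference between the factors was not called (adjusted p = 0.206).

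Granulocyte genes, the best known targets of C/EBPε, were mostly dim. Of 28 on the array 10 passed the filter, and the secondary granule genes Ltf and Ngp were under it. Of the 10, 2 were called higher in CEBPE and 0 higher in CEBPB, against 1.05% and 1.29% of all probe sets. Besides Cd14 the called gene was S100a8, a calcium-binding protein of neutrophils, which read 1828, 1324 and 1185 in CEBPE and 526.2, 528.5 and 1061 in CEBPB. Its difference was 1.09 (SE 0.27, adjusted p = 0.0471), and the call was lost in 12 of 18 alternative fits, including every single-array omission except that of CEBPB replicate 3 (adjusted p up to 0.426). Lcn2, the neutrophil siderophore-binding protein, has 2 probe sets that disagree. The dimmer read 1570, 1178 and 1291 in CEBPE and 249.2, 364.5 and 197 in CEBPB, a called difference of 2.35 (SE 0.39, adjusted p = 0.00229) that was lost without the arrays numbered 1 (0.0811), and it is named here after its values were seen. The brighter read 1914, 1270 and 1515 in CEBPE and 1338, 1010 and 1216 in CEBPB, with groups that overlap and no call (0.39, adjusted p = 0.516).

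Both Ptx3 and Cp belong to the acute phase list and were called in opposite directions, and the 250 bases before the start of each hold a match to the C/EBP consensus letters. These RefSeq promoters, with that of Lcn2, are shown for build GRCm38.p6 with the match to TTGCNNAA, searched on both strands, in capitals. Ptx3 lies at chr3:66219637-66219886 on the plus strand with its match starting at -57 from the start site. Cp lies at chr3:19956999-19957248 on the plus strand with its match at -70, and its other start in the table holds no match. Lcn2 lies at chr2:32387740-32387989 on the minus strand with its match at -216.
Ptx3: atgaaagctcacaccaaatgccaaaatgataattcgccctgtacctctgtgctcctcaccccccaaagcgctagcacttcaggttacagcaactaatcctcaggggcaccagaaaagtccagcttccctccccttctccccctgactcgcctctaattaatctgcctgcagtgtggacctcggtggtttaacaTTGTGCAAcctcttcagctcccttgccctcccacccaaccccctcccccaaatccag
Cp: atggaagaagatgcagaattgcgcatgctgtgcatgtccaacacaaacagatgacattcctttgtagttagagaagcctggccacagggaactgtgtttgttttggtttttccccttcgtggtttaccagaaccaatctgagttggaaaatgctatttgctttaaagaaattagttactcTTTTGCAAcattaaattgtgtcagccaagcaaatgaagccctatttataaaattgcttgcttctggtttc
Lcn2: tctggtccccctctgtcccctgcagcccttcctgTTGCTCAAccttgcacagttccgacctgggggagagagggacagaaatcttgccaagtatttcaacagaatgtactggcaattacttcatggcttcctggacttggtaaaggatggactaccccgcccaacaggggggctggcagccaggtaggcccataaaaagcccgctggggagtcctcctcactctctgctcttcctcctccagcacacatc
Such a match was in 9.56% of all 32851 promoters in the table, in 8 of 71 promoters (11.3%) of genes called higher in CEBPE and in 7 of 87 promoters (8.05%) of genes called higher in CEBPB. A gene can have several promoters, and the 7 include both windows of Dnajb6, with matches at -128 and -209 that may be the same site. Promoters of 120 of the 140 genes called in a single direction were in the table.

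Other letters were matched in a few of the promoters of the genes with the largest differences toward CEBPB. Of 19 promoters in the table for 14 of the 15 genes, 4 (21.1%) hold heat shock element letters, 1 (5.26%) holds the composite C/EBP-ATF letters and 0 hold the C/EBP letters, and the windows of Gadd45b, Igf2, Fos, Trib3 and Dnajb1 hold none of these. The promoters of Hspa1a and Hspa1b each hold the inverted pair of heat shock element units GAANNTTC at -104, and that of Gadd45g holds TTGCATCA, the composite C/EBP-ATF letters bound by ATF4 with C/EBP partners, at -101. Hspa1b lies at chr17:34959239-34959488 on the minus strand and Gadd45g at chr13:51846425-51846674 on the plus strand, with the match in capitals.
Hspa1b: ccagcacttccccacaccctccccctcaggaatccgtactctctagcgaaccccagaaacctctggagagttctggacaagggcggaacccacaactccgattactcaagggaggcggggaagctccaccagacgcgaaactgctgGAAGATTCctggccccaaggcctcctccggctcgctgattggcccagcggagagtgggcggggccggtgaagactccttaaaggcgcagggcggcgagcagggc
Gadd45g: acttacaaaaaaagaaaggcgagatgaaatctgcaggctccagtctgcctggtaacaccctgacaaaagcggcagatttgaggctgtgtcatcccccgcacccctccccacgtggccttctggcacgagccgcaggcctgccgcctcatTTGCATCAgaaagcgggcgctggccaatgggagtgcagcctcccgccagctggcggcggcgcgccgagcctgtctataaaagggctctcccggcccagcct
Heat shock element letters were in 6.69% of all promoters, in 3 of 71 promoters (4.23%) of genes called higher in CEBPE and in 9 of 87 promoters (10.3%) of genes called higher in CEBPB. The 9 include the near-identical copies Hspa1a and Hspa1b and both windows of Dnajb6, with matches at -46 and -127 that may be the same site. They are therefore not all separate sites. The C/EBP-ATF letters were in 0.791% of all promoters, and in 2 of 87 promoters (2.3%) of genes called higher in CEBPB, those of Gadd45g and Aars. A match describes only the letters in this window.

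Interferon-induced genes split between the factors within the same list. Of 17 tested, 2 were called higher in CEBPE and 2 higher in CEBPB, against 1.05% and 1.29% of all probe sets. The median was -0.27. Ifi202b, a member of the p200 family of DNA sensors, read 5527, 7842 and 6271 in CEBPE, 1918, 2637 and 2172 in CEBPB and 2285, 4349 and 3152 in vector. Ifi204, of the same family, read 8367, 14590 and 9529 in CEBPE and 3828, 5148 and 4004 in CEBPB. In both genes CEBPE lay above CEBPB and vector, which overlapped each other, with differences of 1.54 (SE 0.22, adjusted p = 0.000633) and 1.29 (SE 0.21, adjusted p = 0.00211). Genes of this family are close relatives, and the array's probe sets may read more than 1 of them. Gbp2, a guanylate-binding protein induced by interferon γ, read 1413, 1533 and 1555 in CEBPE, 2941, 3535 and 3001 in CEBPB and 1313, 1821 and 1571 in vector. Among CEBPE, CEBPB and vector it was raised only in CEBPB, and the difference was -1.07 (SE 0.16, adjusted p = 0.000782). Irf1, a transcription factor of the interferon response, had the same pattern with a difference of -0.77 (SE 0.13, adjusted p = 0.00282) and lost its call without the arrays numbered 1 (0.0677). Isg15, a ubiquitin-like protein, read 214.1, 207 and 284.9 in CEBPE and 927.6, 313.8 and 1162 in CEBPB, and its difference of -1.58 was not called (adjusted p = 0.0898). In the list of MHC class I and antigen presentation 1 of 12 tested genes was called: Tapbp, a peptide-loading chaperone, was higher in CEBPB at -0.59 (adjusted p = 0.0211), a call lost in 6 of 18 fits including those without CEBPB replicate 2, CEBPB replicate 3, CEBPE replicate 1 or CEBPE replicate 3 (adjusted p up to 0.161). Its dimmer probe sets gave -0.30 and 0.25, neither called.

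Among matrix genes decorin separated the factors most. Dcn, a small proteoglycan that coats collagen fibrils and is a fibroblast marker, read 23180, 36280 and 30860 in CEBPE, 8496, 10030 and 9659 in CEBPB and 2750, 3582 and 2823 in vector. The 3 groups did not overlap, with CEBPE highest, and the difference between the factors was 1.66 (SE 0.17, adjusted p = 1.47e-05). In bulk RNA a larger share of cells with the transcript and more transcript in each cell cannot be told apart. Postn, which encodes the matricellular protein periostin, read 1569, 1709 and 1002 in CEBPE, 2969, 2877 and 3162 in CEBPB and 986.5, 1272 and 944 in vector. Of these 3 groups it was high only in CEBPB, with a difference of -1.11 (SE 0.20, adjusted p = 0.00545) that was not called without the arrays numbered 1 (0.0811). Of 28 proteoglycans and matrix glycoproteins tested, 1 was called higher in CEBPE and 2 higher in CEBPB, against 1.05% and 1.29% of all probe sets. Mfap5, a microfibril glycoprotein, was the remaining call among them, at -0.59 (adjusted p = 0.0198), and was lost in 7 of 18 fits, including every single-array omission except that of CEBPE replicate 2. Of 20 collagen and collagen processing genes 0 were called by limma, against 2.38% of all genes tested, and 3 had an unadjusted p under 0.05. Col1a1 averaged 21800 in CEBPE and 36610 in CEBPB and was lower on every CEBPE array (17000, 25870 and 22540 against 30070, 46950 and 32790). Its dimmer probe set was also lower without overlap and not called (-0.34, adjusted p = 0.194 in limma). Col1a2 averaged 27160 and 38020, with groups that overlapped. Its dimmer probe set ran the other way without overlap, at 6861, 5907 and 8538 in CEBPE and 5524, 5222 and 5291 in CEBPB. That difference was not called either (0.39, adjusted p = 0.258 in limma).

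Of 26 antioxidant and xenobiotic genes 3 were called higher in CEBPE and 1 higher in CEBPB, against 1.05% and 1.29% of all probe sets. The median was 0.06. Aldh3a1, an aldehyde dehydrogenase, read 4896, 5339 and 5269 in CEBPE, 1579, 1480 and 1199 in CEBPB and 848.5, 815.2 and 1007 in vector. The groups stood in the order vector, CEBPB, CEBPE with no overlap, and the difference between the factors was 1.87 (SE 0.16, adjusted p = 1.91e-06). Sod3, the extracellular superoxide dismutase, read 10780, 8956 and 11500 in CEBPE and 5485, 5291 and 4098 in CEBPB, a difference of 1.08 (SE 0.18, adjusted p = 0.003). Akr1b8, an aldo-keto reductase, differed by 0.71 (adjusted p = 0.0315), and its call was lost in 7 of 18 fits including those without CEBPB replicate 1, CEBPB replicate 3, CEBPE replicate 2 or CEBPE replicate 3. Hmox1, the haem oxygenase of the oxidative stress response, read 14510, 12970 and 16230 in CEBPE, 33650, 19600 and 31330 in CEBPB and 99000, 102200 and 97960 in vector. Both factors lay far under vector, and the difference between them was -0.92 (SE 0.18, adjusted p = 0.00905), which was not called in 4 of 18 fits, including those without CEBPB replicate 1 (0.0554) or CEBPB replicate 3 (0.0691). Zinc itself acts on metallothionein genes, and Mt1 averaged 123500 ± 26160 in CEBPE and 109600 ± 19170 in CEBPB (SD, n = 3, adjusted p = 0.777). Mt2 read 97110, 119900 and 124900 in CEBPE and 81400, 96130 and 85560 in CEBPB, without overlap but not called (0.37, adjusted p = 0.29).

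The largest difference in favour of CEBPE belonged to U90926, a gene whose function is not well described. It read 19590, 23640 and 23890 in CEBPE, 3462, 3125 and 3369 in CEBPB and 2874, 3205 and 2788 in vector, a difference between the factors of 2.75 (SE 0.12, adjusted p = 8.2e-10) or 6.72-fold. Fam107b, a heat shock-inducible small protein gene, read 10620, 13190 and 11990 in CEBPE and 3547, 3860 and 3236 in CEBPB, a difference of 1.75 (SE 0.14, adjusted p = 1.1e-06). In both genes, among CEBPE, CEBPB and vector, only CEBPE was high. Hipk2, a kinase that acts on p53, differed by 1.14 (SE 0.16, adjusted p = 0.00065), with 4932, 6222 and 5847 in CEBPE and 2522, 2721 and 2422 in CEBPB. Sash1, a scaffold protein gene, read 3220, 4235 and 3425 in CEBPE, 1338, 1774 and 1536 in CEBPB and 1821, 1924 and 1987 in vector. Lmo7, a junction protein gene, read 4751, 5638 and 5501 in CEBPE, 2041, 2414 and 2629 in CEBPB and 2981, 3493 and 3155 in vector. For these 2 genes the CEBPE arrays lay above every vector array and the CEBPB arrays below, and the differences between the factors were 1.23 (SE 0.15, adjusted p = 0.000141) and 1.17 (SE 0.15, adjusted p = 0.00021). Against vector only the CEBPE side was called, with adjusted p of 0.000493 for Sash1 and 0.00317 for Lmo7 in CEBPE and 0.229 and 0.073 in CEBPB. Tmem45a, a transmembrane protein gene, differed by 1.25 (SE 0.24, adjusted p = 0.00834) and lost its call without CEBPB replicate 3 (0.0503) or with no filter on low signal (0.0584).

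**Figure D3:**
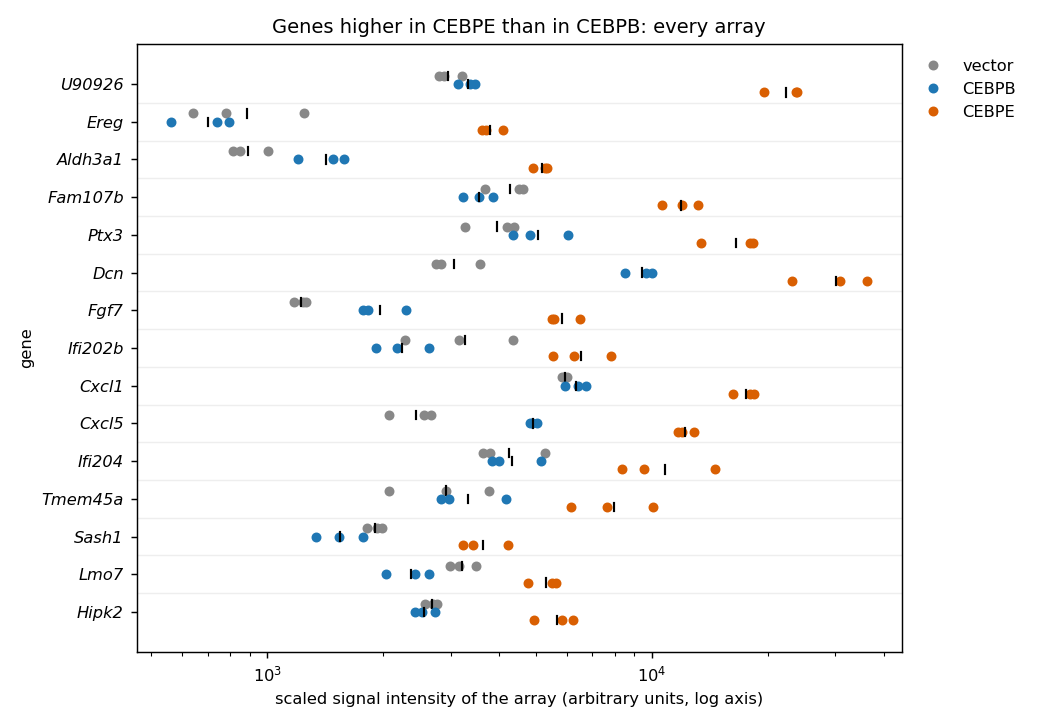
Scaled signal of each array (horizontal, log axis) for the 15 genes with the largest called differences in the direction of CEBPE, with vector, CEBPB and CEBPE points in grey, blue and orange and a black bar at each group's arithmetic mean of 3 arrays. Orange points lie right of the blue points in every gene, and for Dcn, Aldh3a1, Fgf7 and Cxcl5 the blue points lie right of all grey points.

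The remaining genes among the 15 largest in the direction of CEBPB were dim in CEBPE. Sh3gl3, an endophilin of membrane curvature, held its call in all 18 alternative fits: it read 814.9, 1322 and 1108 in CEBPE, 2319, 2432 and 2732 in CEBPB and 5904, 6894 and 5457 in vector, a difference of -1.23 (SE 0.19, adjusted p = 0.00153). Anxa8, a calcium-dependent phospholipid-binding protein, read 240.4, 687.7 and 313.4 in CEBPE, 1807, 1730 and 1681 in CEBPB and 1559, 1349 and 1384 in vector. The CEBPB arrays lay above and the CEBPE arrays below every vector array. Against vector only the CEBPE side was called (adjusted p = 0.0122, and 0.791 in CEBPB). CEBPA averaged 573.4 and CEBPD 671.7, also below the 1430 of vector. The Anxa8 difference between CEBPE and CEBPB was -2.22 (SE 0.49, adjusted p = 0.0208). Its call was lost in 7 of 17 fits, including every single-array omission except that of CEBPE replicate 2 (adjusted p up to 0.223). Pla2g6, a calcium-independent phospholipase, differed by -1.92 (adjusted p = 0.0136) and lost the call in 6 of 17 fits, including those without CEBPB replicate 2 (0.0504), CEBPB replicate 3 (0.0691) or CEBPE replicate 3 (0.0677). Hsd3b1, a steroid dehydrogenase, differed by -1.78 (adjusted p = 0.0139) and lost it in 4 of 17, including those without CEBPB replicate 2 (0.0747) or CEBPE replicate 3 (0.0917). Fam117a, with 1 CEBPE array at the floor, differed by -1.51 (adjusted p = 0.0269), and raising the floor to the 40th percentile left -0.36 (0.414). That call was also lost without CEBPB replicate 1 (0.117), CEBPB replicate 3 (0.149), CEBPE replicate 2 (0.0813) or CEBPE replicate 3 (0.0669).

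Set beside vector, these genes fell into several arrangements, described here by each comparison's own values because both comparisons use the same vector arrays. In CEBPE 653 probe sets (9.38%) were called higher than vector and 481 (6.91%) lower, and in CEBPB 357 (5.13%) higher and 291 (4.18%) lower. For Hspa1b the difference from vector was -4.48 in CEBPE and -1.52 in CEBPB, both called (adjusted p = 4.02e-12 and 6.54e-06). For Fos it was -3.94 and -2.30, also both called. U90926 differed from vector by 2.92 in CEBPE (adjusted p = 1.6e-10) and 0.17 in CEBPB (adjusted p = 0.468). Igf2 differed by -2.44 in CEBPE (adjusted p = 1.09e-07) and -0.02 in CEBPB (adjusted p = 0.969). Gbp2 differed by -0.05 in CEBPE (adjusted p = 0.867) and 1.02 in CEBPB (adjusted p = 0.00051), and Fosl1 by 0.02 (adjusted p = 0.946) and -0.80 (adjusted p = 0.000266). Dcn was raised over vector by both, by 3.29 in CEBPE and 1.63 in CEBPB (adjusted p = 1.66e-09 and 1.18e-05). No gene was called in opposite directions against vector in the 2 groups and called between them.

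The other C/EBP groups did not simply side with either factor. For Hspa1b CEBPA averaged 4653, near CEBPE, and CEBPD averaged 67990, near vector. U90926 averaged 6755 in CEBPA and 3749 in CEBPD, so its high level was reached in CEBPE alone among the 5 groups. Igf2 averaged 3636 in CEBPA and 5161 in CEBPD, which leaves CEBPE lowest. Gbp2 averaged 2780 in CEBPA, within reach of the 3159 of CEBPB, and 1337 in CEBPD. Ereg averaged 2228 in CEBPA and 2500 in CEBPD, both between CEBPB and CEBPE. Some genes higher in CEBPE than in CEBPB were higher still in CEBPA. Ifi204 averaged 12990 in CEBPA and 10830 in CEBPE, and Lmo7 7702 and 5297. The dimmer probe set of Lcn2 averaged 2048 and 1346, and that of Slfn2 2409 and 2046.

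**Figure D4:**
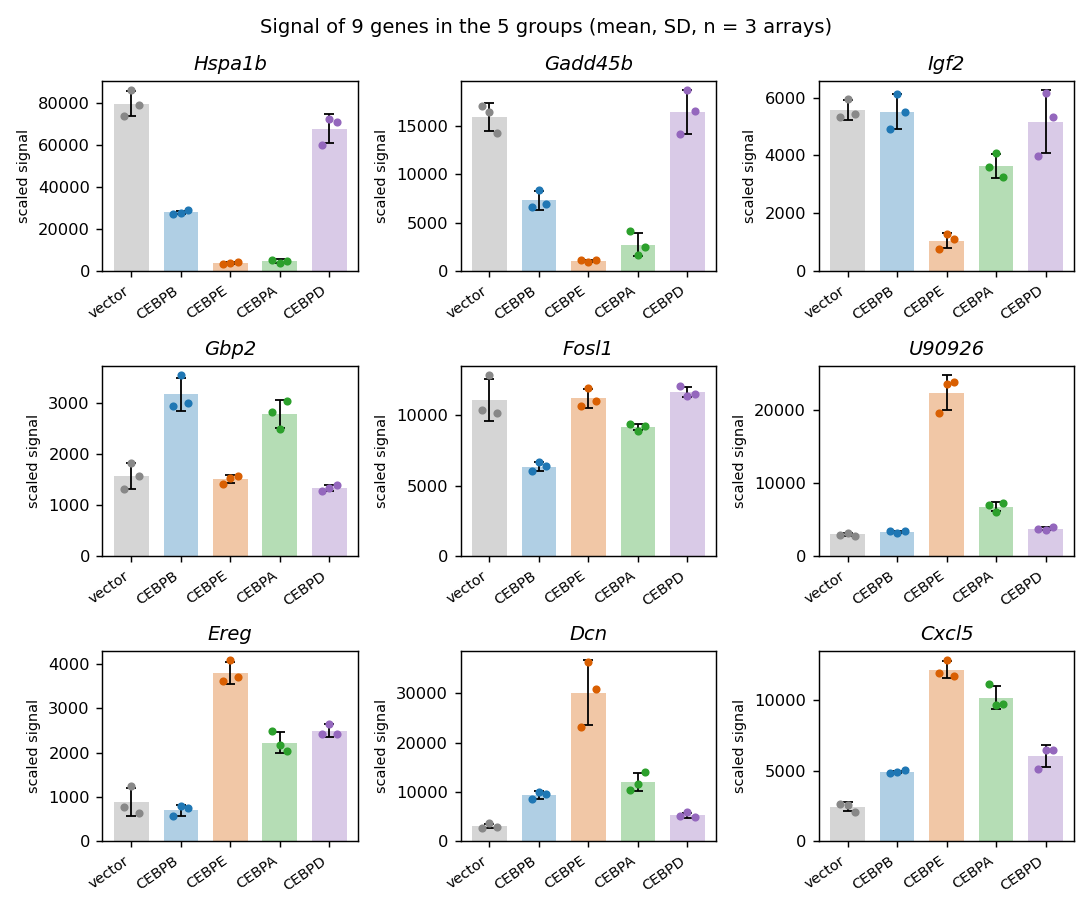
Scaled signal (vertical, linear axis from 0) of 9 genes in the vector, CEBPB, CEBPE, CEBPA and CEBPD groups, with bars at the mean of 3 arrays, error bars of 1 SD and a point for each array. Hspa1b and Gadd45b are lowest in CEBPE, Igf2 is low in CEBPE and not in CEBPB, Gbp2 is higher in CEBPB than in CEBPE, and U90926, Ereg and Dcn are highest in CEBPE.

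Most lists of metabolic and growth genes held no call or few. Over all genes tested, 748 of 5338 had an unadjusted p under 0.05. Of 51 cell cycle and DNA replication genes 0 were called by limma, 7 had an unadjusted p under 0.05, and the values ran from -0.37 to 0.54. Of 44 oxidative phosphorylation genes 0 were called and 1 had an unadjusted p under 0.05, and of 31 proteasome genes 0 were called and 1 had such a p. Of 16 cholesterol synthesis and uptake genes 0 were called and 2 had an unadjusted p under 0.05, with a median of 0.10. Of 12 adipocyte and lipid storage genes 0 were called and 3 had an unadjusted p under 0.05: Lpl, lipoprotein lipase, read 782.9, 1075 and 1218 in CEBPE and 781.1, 948.4 and 925.4 in CEBPB, an overlap with no call (0.19, adjusted p = 0.777). Of 16 glycolysis and lactate genes 7 had an unadjusted p under 0.05 and 12 had a difference above 0, with a median of 0.30. Of these genes 1 was called each way, Pfkl, the liver-type phosphofructokinase, at 0.64 (adjusted p = 0.0315) and Eno2, an enolase, at -0.58 (adjusted p = 0.0471). Pfkl lost its call in 8 of 18 fits and Eno2 in 9, each without CEBPB replicate 1, CEBPB replicate 3, CEBPE replicate 2 or CEBPE replicate 3, and Eno2 also without CEBPB replicate 2. Across 5338 genes the share called was 2.38%, and the remaining lists with no call are circadian clock genes (13 tested), matrix proteases and inhibitors (14), contractile genes (16), TGF-beta, BMP, Wnt and Notch genes (20), metallothionein and zinc response genes (8) and iron handling genes (4). At an unadjusted p under 0.05 those lists held 5, 6, 3, 2, 1 and 0 genes.

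**Figure D5:**
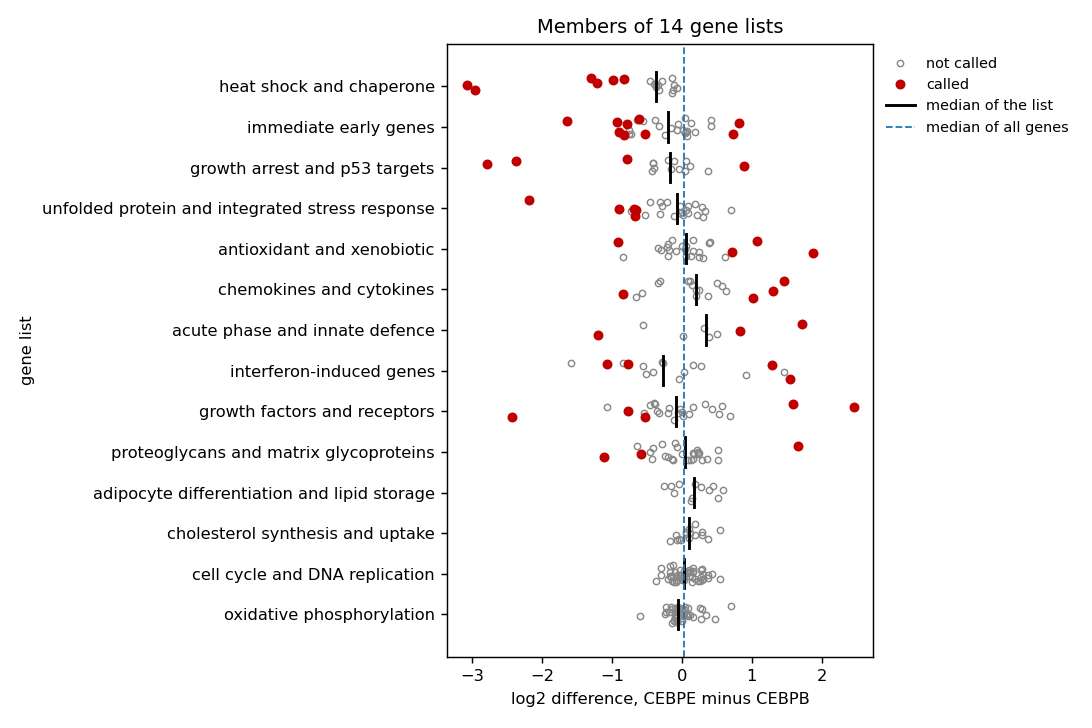
Log2 difference between CEBPE and CEBPB (horizontal) of each tested member of 14 gene lists (rows), with called genes filled red, others open, a black bar at each list's median and a dashed line at the median of all genes; points are jittered vertically. Heat shock genes lie entirely left of 0 with 6 called, and chemokines have 3 called genes to the right and 1 to the left.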

How the data were processed

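RNA of 15 NIH 3T3 cultures was measured on Affymetrix MG_74Av2 arrays, and the deposited values are linear signal intensity per probe set, which the authors made with Microarray Suite 5.0, per the labels. The number of arrays sets the precision, and no detection calls are used here. From 12488 probe sets the 66 controls were removed, and of the 12422 remaining the platform annotation names 1 gene for 10833, several for 396 and none for 1193. Each array was scaled to a common median, values under the 20th percentile (190) were raised to it, and probe sets above the pooled median (1092) on at least 3 of 15 arrays were tested, 6963 in all. Differences are log2, fitted in limma 3.58.1 (R 4.3.3) with a term for each group, a mean-variance trend and Benjamini-Hochberg adjustment. The fit was also run on simulated arrays with independent noise and known shifts, which checks the code and not the noise of the real arrays.

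Where a gene has several tested probe sets, the brightest stands for it. The rule names the C/EBP genes, the 15 largest called differences each way, and in each list up to 6 called genes by size and 3 others by mean signal. Lcn2, Cdkn1a, Mdm2, Dusp1, Dusp6, Egr1, Jun, Ier3, Xbp1, Isg15, Lpl and the genes under the other observations fall outside it and were chosen after their values were seen. The members and gene lists were chosen with earlier results of these data known. Alternatives changed scaling, floor, filter, trend, array weights, replicate block and the arrays fitted. Promoters of 250 bases are from RefSeq (GRCm38.p6).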

Additional observations from a re-analysis of the deposited data

Results flagged for a closer look

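In 5 called probe sets that name a single gene, and in a further 2 that are not named, all 3 CEBPE arrays lay on one side of every vector array and all 3 CEBPB arrays on the other. Only called probe sets were searched for this arrangement, and its share among all 6963 tested was not counted, so these counts are descriptive. Separation of the CEBPE from the CEBPB arrays alone was seen in 18.6% of all tested. The named probe sets are Anxa8 (a log2 difference of -2.22, CEBPE low and CEBPB high), Sash1 (1.23, CEBPE high and CEBPB low), Lmo7 (1.17, CEBPE high and CEBPB low), Dlx6os2 (0.92, CEBPE high and CEBPB low) and the dimmer probe set of Cd34 (-0.63, CEBPE low and CEBPB high). Against vector the CEBPB side was not called for any of them, and the CEBPE side was called for Anxa8, Sash1 and Lmo7. The CEBPE minus CEBPB difference is itself the test of whether the factors differ in their distance from vector, and its adjusted p in limma was 0.0208 for Anxa8, 0.000141 for Sash1, 0.00021 for Lmo7, 0.0163 for Dlx6os2 and 0.0289 for Cd34. Dlx6os2, a non-coding RNA gene, read 1526, 1676 and 1839 in CEBPE, 845.1, 925.8 and 894.8 in CEBPB and 1159, 1153 and 1134 in vector, and lost its call in 5 of 17 fits, including those without CEBPB replicate 1, CEBPB replicate 3 or CEBPE replicate 3. Cd34, a surface sialomucin of stromal and blood progenitor cells, lost its call in 7 of 18 fits, including every single-array omission except that of CEBPE replicate 1, and its brighter probe set gave -0.63 with no call (adjusted p = 0.137).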

How the results depend on the processing

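The count of 163 called probe sets was 284 with quantile normalization (116 higher in CEBPE, 168 higher in CEBPB), 253 with no scaling (149 higher in CEBPB) and 950 with array weights (464 and 486). It was 72 with only the CEBPE and CEBPB arrays fitted (36 and 36) and 75 without the arrays numbered 1 (41 and 34). Omitting 1 CEBPE or CEBPB array at a time gave 85 to 153 called, 44 to 62 higher in CEBPE and 41 to 100 higher in CEBPB. The share higher in CEBPE was 44.8% as reported, 54.7% without the arrays numbered 1, 54.9% without CEBPB replicate 2 and 34.6% without CEBPE replicate 2. Fitting the replicate number as a block gave 310 called (145 and 165), with all 163 retained. The labels do not say whether a number marks a batch. Deviations of same-numbered CEBPE and CEBPB arrays correlated at 0.44, 0.43 and 0.08, and because of the third the numbers were not taken to pair the arrays. Each array nevertheless correlated best with its own number, a hint from the data and not from the design. Under the changes of floor, filter and trend and the median-ratio scaling, the count was 146 to 210. Of 148 called probe sets naming a single gene, 103 lost the call in at least 1 alternative. Heat shock calls toward CEBPB ranged from 5 to 11 over the alternatives, immediate early from 3 to 10, and stress response from 1 to 9. The cause of these shifts was not tested. Signal over background limits genes near the floor, such as Fam117a, Trib3 and Fgfr3.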

Other observations

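Several genes outside the named groups kept their call in every alternative fit that tested them. Procr, the endothelial protein C receptor, read 2467, 3056 and 2893 in CEBPE, 5712, 5084 and 5100 in CEBPB and 16870, 20000 and 17770 in vector, a difference between the factors of -0.92 (SE 0.12, adjusted p = 0.000249 in limma). Psph, the last enzyme of serine synthesis, differed by -0.77 (SE 0.11, adjusted p = 0.000569), and Mknk2, a kinase of the translation factor eIF4E, by -0.89 (SE 0.15, adjusted p = 0.00245). Both also lay under vector in each factor's cells, with CEBPE lowest. In the other direction Glrx, the thiol oxidoreductase glutaredoxin, read 6357, 7987 and 7823 in CEBPE and 2953, 3521 and 3654 in CEBPB, a difference of 1.13 (SE 0.14, adjusted p = 0.00021). Dhrs1, a short-chain dehydrogenase, read 10140, 9955 and 10020 in CEBPE and 4894, 4824 and 5025 in CEBPB, a difference of 1.03 (SE 0.13, adjusted p = 0.000141). Abhd5, the coactivator of adipose triglyceride lipase, differed by 1.07 (SE 0.20, adjusted p = 0.00527), and Ero1a, an oxidase of the endoplasmic reticulum, by 0.85 (SE 0.15, adjusted p = 0.00409), with 0.76 from its dimmer probe set.

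Some genes were called through a dimmer probe set while the brightest was not. Slfn2, a Schlafen gene of quiescent immune cells, read 1350, 2753 and 2036 in CEBPE and 212.6, 242 and 466.1 in CEBPB on the dimmer probe set (2.77, adjusted p = 0.00104), and its brighter one gave 1.46 (adjusted p = 0.135). Stat3, the transcription factor activated by IL-6 type cytokines, gave 0.92 (adjusted p = 0.00417) and 0.38 (adjusted p = 0.217), and its call was lost without the arrays numbered 1 (0.0843). Junb, an AP-1 subunit, gave -1.46 (adjusted p = 0.00519) and -0.32 (adjusted p = 0.434), and its call was lost with only the CEBPE and CEBPB arrays fitted (0.0511). Capn6, a calpain without protease activity, gave -0.98 (adjusted p = 0.00109) and -0.41 (adjusted p = 0.0657). The 2 probe sets of Noct, a circadian phosphatase also called nocturnin, were called in opposite directions, at -0.72 (adjusted p = 0.035) and 0.51 (adjusted p = 0.05), and the calls were lost in 9 and 10 of 18 fits. Which of these probe sets reads its gene was not tested.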
